A study of Caenorhabditis elegans with 12 samples.

Results

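The response of wild type Caenorhabditis elegans to vitamin C was described from 6 whole-worm RNA-seq libraries out of the 12 in the series. The treated group, N2 vitC, held 3 libraries of the standard laboratory strain N2 grown from the first larval stage on NGM plates with 10 mM sodium L-ascorbate. The untreated group, N2, held 3 libraries of the same strain grown on plates without it, and both groups were harvested at the L4 larval stage, which was read from vulva and gonad development. Each library stood for a biological replicate, and no allele or other agent was common to the 2 groups. The remaining 6 libraries came from the wrn-1(gk99) mutant, grown with (3) or without (3) vitamin C, and entered the fits' estimate of the spread, placed one treated N2 library among the groups and served to compare the responses of the strains. Genes entered the comparison when they averaged 10 or more normalized counts over the 6 N2 libraries, which left 14377 of the 45327 genes in the table. A normalized count is the number of reads on a gene divided by the size factor of its library. Reads assigned to genes numbered 16906355 to 22417513 in the N2 vitC libraries and 15952129 to 20591287 in the N2 libraries, and the 20 most abundant genes took 10.5% to 12.5% of the normalized counts in N2 vitC and 16.7% to 17.3% in N2.

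Vitamin C is a reducing agent. In vertebrates it keeps the iron of 2-oxoglutarate-dependent dioxygenases reduced, among them the prolyl and lysyl hydroxylases that modify collagen in the endoplasmic reticulum, the HIF prolyl hydroxylases and the JmjC histone demethylases. The nematode body is wrapped in a cuticle made mostly of collagens, which the epidermis secretes anew before each molt. Collagens, cuticlins, proteases and hedgehog-related proteins are therefore transcribed in waves through each larval stage, and the last molt closes L4.

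The library labelled N2 vitC replicate 3 stood apart from the other treated libraries. Over the genes tested, the median absolute log2 difference was 0.40 between N2 vitC replicates 3 and 1 and 0.39 between replicates 3 and 2, while replicates 1 and 2 differed by 0.09. Replicate 3 differed by 0.07 to 0.12 from the 3 libraries of wrn-1(gk99) worms given vitamin C, and by 0.33 to 0.35 from the untreated N2 libraries. Those wrn-1(gk99) vitC libraries differed from each other by 0.11 to 0.15, so replicate 3 was no farther from them than they were from each other. It was nearer the mean of the wrn-1(gk99) vitC libraries than the mean of N2 vitC replicates 1 and 2 in 12514 of the 14377 genes (87.0%). Its label was kept, every result was computed with it and without it, and in the fit without it the treated side rests on N2 vitC replicates 1 and 2. A gene was called when the limma adjusted p (Benjamini-Hochberg over all genes tested) was under 0.01, the group means differed 2-fold or more, and one of them was above the minimum number of reads the study set from its RT-PCR. A gene called in the same direction with all 3 treated libraries and without replicate 3 is said to hold. Replicate 3 therefore has a part in which genes hold, and 216 higher and 142 lower calls made only without it do not hold.

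With all 3 treated libraries 358 of the 14377 genes were called (2.49%), 166 of them higher (1.15%) and 192 lower (1.34%) in N2 vitC worms. Without replicate 3 the number was 659 (4.58%), with 371 higher (2.58%) and 288 lower (2.00%). The calls shared by both fits numbered 301 (2.09%), 155 up (1.08%) and 146 down (1.02%) in N2 vitC, while there were 0 calls in opposite directions. In all 301 the 3 treated libraries lay on one side of the 3 untreated ones, as they did in 13.9% of all genes upward (2001) and 19% downward (2727). The 301 were chosen by their fold and p in these same libraries, so their separation adds no support. The smallest two-sided p that an exact permutation test of 3 libraries against 3 can give is 0.1, so the separation is a description. Without replicate 3 the count was set by the size of the change, since 661 genes passed the fold and the minimum mean whatever their p and 659 of them also passed the adjusted p. A limma adjusted p under 0.01 at any size of change was reached by 5230 of the 14377 genes without replicate 3 and by 1830 with all 3. Fitting only the 6 N2 libraries gave 128 calls (26 higher, 102 lower) with all 3 treated libraries and 659 without replicate 3, so that of the calls said to hold 24 of the 155 higher and 92 of the 146 lower were called in both fits when the wrn-1(gk99) libraries were left out. Scaling the libraries to equal totals gave 257 higher and 140 lower calls with all 3 treated libraries, or 64.7% higher in place of 46.4%. In that scaling all genes had a median log2 fold change of 0.07, where the deposited scaling gave -0.03.

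The sizes of the changes were not symmetric among the genes that held. Without replicate 3 the ratio of N2 vitC to N2 among the 155 genes higher in both fits ran from 2.00 to 10.7 with a median of 2.87, and 23 of them had a log2 fold change of at least 2. Among the 146 lower genes the ratio ran from 0.33 to 0.50 with a median of 0.433, and 0 had a log2 fold change of -2 or less. Replicate 3 moved differently in the 2 sets. Its median log2 change from N2 was 0.59 in the higher set, where replicates 1 and 2 had 1.52, and -1.50 in the lower set, where they had -1.2. Its change was the larger one in 10 of the 155 higher genes and in 100 of the 146 lower genes, beside 8023 of all 14377, and replicate 3 was in one of the 2 fits that chose both sets. It was not in the fit that called 371 genes higher and 288 lower without it. There the median log2 changes of replicates 1 and 2 were 1.38 and -1.16, closer in size than the 1.52 and -1.2 of the sets that held.

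**Figure D1:**
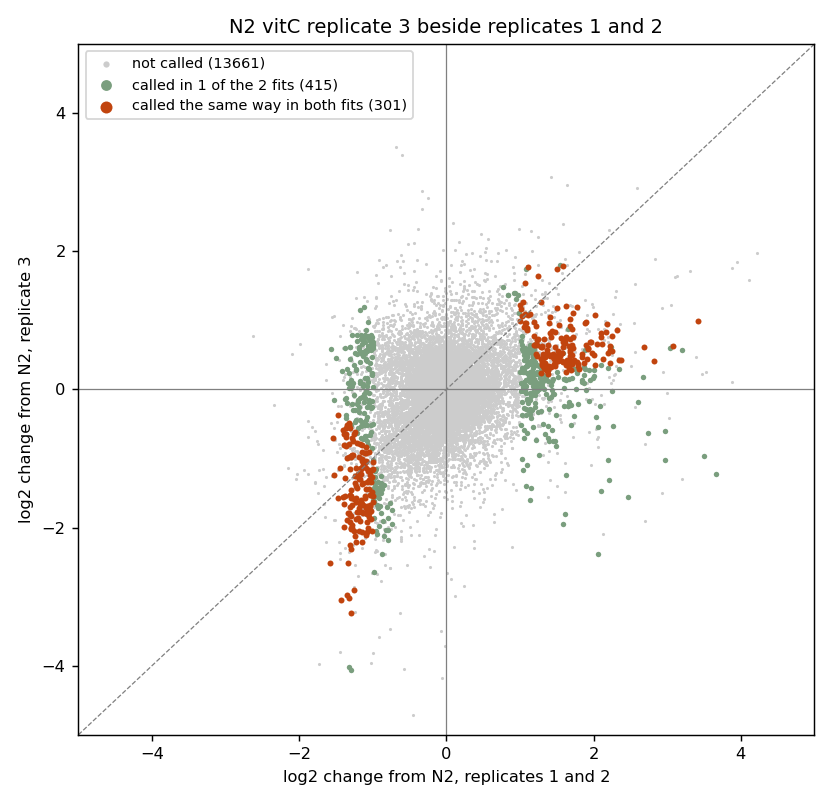
Each point is 1 of the 14377 genes, with the log2 change from N2 in N2 vitC replicates 1 and 2 on the horizontal axis and in N2 vitC replicate 3 on the vertical axis; the dashed line marks equal changes, and 1 gene lies outside the axes. The 301 genes called the same way in both fits lie mostly below the dashed line on the right, with a median of 0.59 in replicate 3 against 1.52 in replicates 1 and 2, and spread downward on the left, with a median of -1.50 against -1.2.

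Among the 371 genes called higher without replicate 3, the level in replicate 3 lay above all N2 libraries for 267, within their range for 35 and below them for 69. Among the 288 called lower, it lay below all N2 libraries for 194, within their range for 13 and above them for 81. Over all genes tested it lay above the N2 libraries for 5794 and below them for 5816. The accounts of gene groups below give both counts.

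The 12 genes with the highest fold changes among those that held were a molting gene, a collagen, a hedgehog-related gene, a cadherin, a lipocalin-related gene, a C-type lectin gene and 6 genes that the deposited table lists by a sequence name. With only the N2 libraries fitted and all 3 treated libraries kept, 0 of these 12 were called. Values are normalized counts in replicate order. lpr-5, a lipocalin-related secreted protein, had 19226, 18549 and 5267 in the N2 vitC libraries, against 4030.0, 4055 and 4028 in the N2 libraries. Its log2 fold change was 2.23 ± 0.05 (SE) without replicate 3 (limma adjusted p = 1.25e-13) and 1.61 with all 3 treated libraries (adjusted p = 0.00742). Replicates 1 and 2 were far above N2, replicate 3 only slightly, and the groups did not overlap. The same order was seen in every one of the 12 genes with the highest log2 fold change. grl-3, a hedgehog-related protein with a ground-like domain, had 13019, 12425 and 3345 in the N2 vitC libraries, against 2529.5, 2445 and 2513 in the N2 libraries, a log2 fold change of 2.35 ± 0.05 without replicate 3. cdh-7, a cadherin, had 5782, 5874 and 1791 in the N2 vitC libraries, against 1283, 1304 and 1087 in the N2 libraries. The protein encoded by clec-180 carries a C-type lectin domain, and its gene had 21064, 20405 and 6881 in the N2 vitC libraries, against 4518, 4453 and 4330.4 in the N2 libraries. In these 3 genes replicate 3 was above every N2 library but much nearer to N2 than to replicates 1 and 2.

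mltn-10, a relative of the molting gene mlt-10, had 1098, 1097 and 204 in the N2 vitC libraries, against 88.7, 105 and 114 in the N2 libraries, and its log2 fold change of 3.42 ± 0.16 without replicate 3 (limma adjusted p = 2.88e-10) was the highest among the genes that held. col-163, a cuticle collagen, had 13164, 13142 and 3132 in the N2 vitC libraries, against 2006, 2054 and 2106 in the N2 libraries. Both stayed above N2 in replicate 3. The other members of the 12 highest carried sequence names in the table, of which RefSeq names F44G3.2 argk-1 and R57.2 dbd-18. F26D11.2 (log2 fold change 3.08 without replicate 3), R05G9R.1 (2.82), F44G3.2 (2.38), F28G4.4 (2.31), Y54G2A.37 (2.25) and R57.2 (2.22) all had adjusted p of 0.00986 or lower in both limma fits. F28G4.4 had 459, 424 and 161 in the N2 vitC libraries, against 76.6, 96.8 and 91.7 in the N2 libraries, again with replicate 3 between N2 and the other treated libraries.

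The 12 genes with the lowest fold changes that held changed less in size, and 6 of them were called with only the N2 libraries fitted and all 3 treated libraries kept. scl-1, which encodes a secreted SCP-domain protein, had 73.0, 70.6 and 129 in the N2 vitC libraries, against 208, 211 and 212 in the N2 libraries and a log2 fold change of -1.54 ± 0.11 without replicate 3 (limma adjusted p = 1.50e-08; with all 3, -1.26, adjusted p = 0.000649). All treated libraries were below all N2 libraries, with replicate 3 in between. C05E7.2 had 380.4, 384 and 359 in the N2 vitC libraries, against 1115, 959 and 1132 in the N2 libraries, with replicate 3 close to the other treated libraries. The C-type lectin gene clec-59 had 525, 488 and 455 in the N2 vitC libraries, against 1413, 1347 and 1279 in the N2 libraries, again close among the treated libraries. Y54G2A.57 went the other way: it had 65.9, 68.1 and 21.3 in the N2 vitC libraries, against 193, 168 and 187 in the N2 libraries, lowest by far in replicate 3. The Q/N-rich genes abu-8 (605, 673 and 962 in the N2 vitC libraries, against 1651, 1662 and 1730.3 in the N2 libraries) and abu-15 (log2 fold change -1.39) and their relative pqn-54 (-1.48) were also among the 12, with replicate 3 closer to N2 in each. The rest were Y46H3A.5 (-1.57), T06E4.9 (-1.53), C54D2.1 (-1.45), T24C12.4 (-1.41) and C27D9.2 (-1.4), all with log2 fold changes of the fit without replicate 3.

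**Figure D2:**
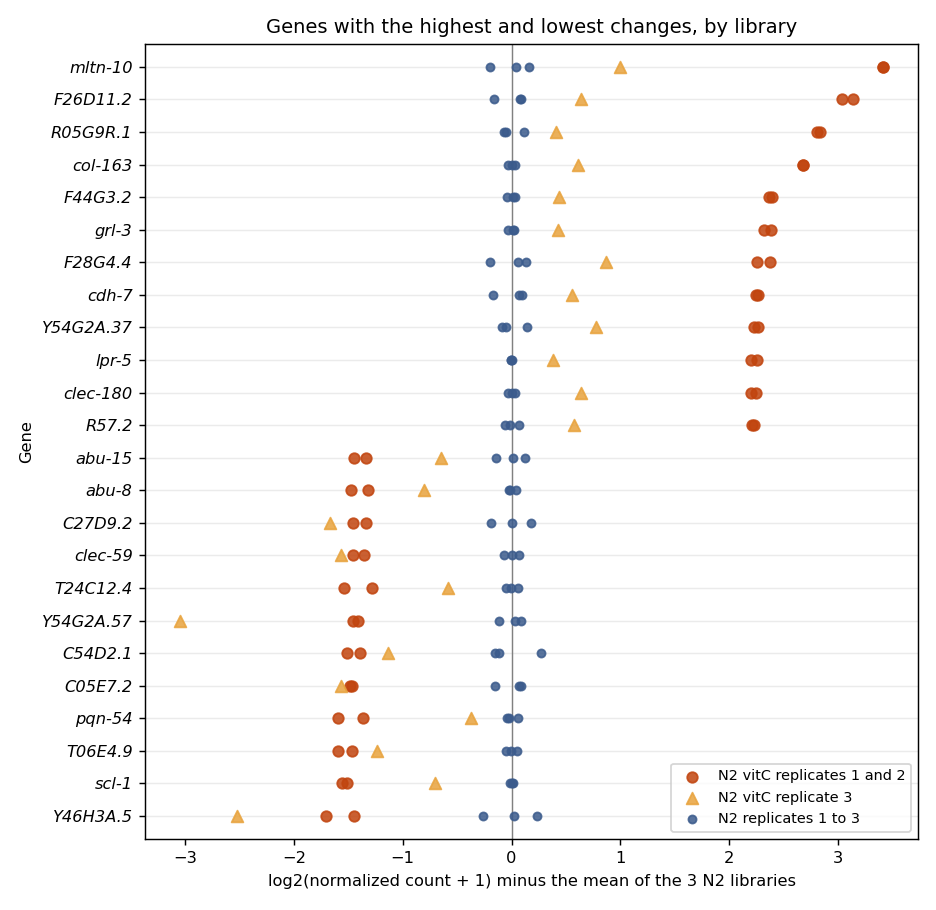
The 12 highest and the 12 lowest genes among those that held are shown by library, with the difference of log2(normalized count + 1) from the mean of the 3 N2 libraries on the horizontal axis and 1 row per gene. N2 vitC replicates 1 and 2 lie close together in the upper 12 genes with replicate 3 (triangles) between them and N2, and in the lower 12 replicate 3 lies on either side of them, at -3.04 for Y54G2A.57.

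Molting genes and their relatives were called higher more often than lower, and most of those calls rested on replicates 1 and 2. Of the 32 listed genes 30 were tested. Without replicate 3, 10 were called higher and 2 lower (beside 4.58% of all genes called), and 4 held, all higher, with a median log2 fold change over the list of 0.44 without replicate 3 and 0.23 with all 3, beside -0.05 and -0.03 for all genes. The 4 that held were mltn-10, mltn-11 (2.09 without replicate 3) and the zona pellucida domain matrix genes noah-1 (1.79) and noah-2 (1.71). mlt-11, a Kunitz-type protease inhibitor, had 44355, 44338 and 9231 in the N2 vitC libraries, against 9673, 9912 and 8521 in the N2 libraries, so replicate 3 overlapped N2 and the call without it (log2 fold change 2.25 ± 0.22, limma adjusted p = 9.83e-07) was lost with all 3 (adjusted p = 0.0485). The fibrillin-like matrix gene fbn-1 had 7734, 7472 and 2219 in the N2 vitC libraries, against 2110.4, 2191 and 1955 in the N2 libraries, with replicate 3 just above N2, and its call was lost in the same way (adjusted p = 0.0369). mltn-1 went down in replicates 1 and 2 and up in replicate 3, with 68.3, 63.2 and 330.3 in the N2 vitC libraries, against 141, 172 and 135 in the N2 libraries.

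Of 15 listed regulators of the molt cycle and of larval timing, 2 were called higher and 1 lower in both fits, and 12 were called in neither, beside 2.09% of all genes that held. nhr-23, the nuclear hormone receptor needed at each larval molt, had 1956, 1947 and 951 in the N2 vitC libraries, against 643, 634 and 694 in the N2 libraries, a log2 fold change of 1.57 ± 0.07 without replicate 3 (limma adjusted p = 1.73e-10) and 1.22 with all 3 (adjusted p = 0.00175). The heterochronic transcription factor hbl-1 was also higher (1.22 and 0.98). bed-3, a zinc finger gene needed for molting and for vulval cell divisions, was lower with 3268, 3252 and 2394 in the N2 vitC libraries, against 7257, 7369 and 7198 in the N2 libraries, and its log2 fold change was -1.16 ± 0.05 without replicate 3 and -1.31 with all 3. The treated and untreated libraries did not overlap in nhr-23 or bed-3. The hours from plating to harvest are not given in the sources used here. Whether treated and untreated worms were harvested at the same point within L4 was not tested in these libraries.

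Furrow collagens, the 6 products that shape the annular furrows of the cuticle and whose loss makes worms dumpy, rose together in replicates 1 and 2. All 6 were called higher without replicate 3 (beside 2.58% of all genes) and 5 with all 3 (beside 1.15%), but 0 with all 3 when only the N2 libraries were fitted. The median log2 fold change was 1.31 without replicate 3 and 1.02 with all 3. dpy-3 had 5063, 5409 and 2252 in the N2 vitC libraries, against 1596, 1663 and 1765 in the N2 libraries, a log2 fold change of 1.64 ± 0.06 without replicate 3 (limma adjusted p = 2.03e-11). dpy-7 had 4435, 4500.1 and 2675 in the N2 vitC libraries, against 2086, 2050.1 and 2132 in the N2 libraries. Its log2 fold change was 1.1 without replicate 3 but 0.85 with all 3, where its ratio of means stayed below 2. The log2 fold changes of dpy-2, dpy-8, dpy-9 and dpy-10 without replicate 3 were 1.31, 1.46, 1.32 and 1.30. Replicate 3 was above every N2 library in all 6, with a median log2 change of 0.37, and the median in wrn-1(gk99) worms given vitamin C was -0.35.

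Most other cuticle collagens were lower in replicates 1 and 2. Of the 160 col genes, which encode cuticle collagens, 133 were tested. Without replicate 3, 47 were called lower and 10 higher (42.9%, beside 4.58% of all genes). Of these calls 18 lower and 6 higher held (18.05% of the genes tested, beside 2.09% of all genes). The list medians were -0.88 without replicate 3 and -0.58 with all 3. The median change of replicate 3 alone was -0.07, with members in both directions. col-104 (-1.39 without replicate 3, -1.99 in replicate 3), col-14 (-1.33, -1.79) and col-72 (-1.35, -2.97) were lower in all treated libraries. By contrast col-146 had 279, 296 and 926 in the N2 vitC libraries, against 650.2, 796 and 875 in the N2 libraries, with replicates 1 and 2 below N2 and replicate 3 above it, and col-77 had 762, 686 and 3039.7 in the N2 vitC libraries, against 1698, 1817 and 1773 in the N2 libraries. The 6 higher genes that held were col-163, col-124 (2.18), col-141 (1.69), col-149 (1.69), col-128 (1.67) and col-150 (1.19). The summed normalized counts of all col genes were lower in each treated library, at 1789670, 1821360 and 1337630 in N2 vitC against 2682020, 2734100 and 2919660 in N2. Several col genes are near-identical copies, and the handling of reads that fit more than 1 gene is not given in the sources used here.

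Of the 13 body-shape and blister collagens, 4 were called lower without replicate 3 (dpy-5, sqt-1, dpy-4 and dpy-13; 30.8%, beside 4.58% of all genes called) and 0 with all 3. At an adjusted p under 0.01 without replicate 3 there were 10 lower and 1 higher, beside 5230 of all 14377 genes. dpy-5 had 3945, 3883 and 14646 in the N2 vitC libraries, against 8159, 8329 and 9157 in the N2 libraries. Replicates 1 and 2 were at less than 0.5 of the N2 level in dpy-5 and replicate 3 was above it, and the list median was -0.99 without replicate 3 against 0.48 in replicate 3 alone.

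Of 17 listed enzymes that use or are linked to ascorbate, 14 were tested, 1 was called without replicate 3 (7.14%, beside 4.58% of all genes) and 0 held, and the median log2 fold change was 0.01 without replicate 3 and -0.04 with all 3. The call was dpy-18, a catalytic subunit of the prolyl 4-hydroxylase that modifies cuticle collagens. dpy-18 had 13841, 13961 and 8275 in the N2 vitC libraries, against 6249, 6361 and 6118 in the N2 libraries, a log2 fold change of 1.15 ± 0.05 without replicate 3 (limma adjusted p = 1.2e-10) and 0.91 with all 3 (adjusted p = 0.00156). The groups did not overlap, but with replicate 3 the ratio of means was under 2. phy-2, the other main catalytic subunit, had 5289, 5190.0 and 2536 in the N2 vitC libraries, against 2708, 2759.6 and 2672 in the N2 libraries, so replicates 1 and 2 were nearly 2 times N2 and replicate 3 was below it. let-268, the lysyl hydroxylase, had 1937, 1796 and 1445 in the N2 vitC libraries, against 1899, 1925 and 1754 in the N2 libraries, and its interval without replicate 3 (0.01 ± 0.06, SE) included no change.

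Outside collagen modification the listed enzymes stayed within 0.62 on the log2 scale in the fit without replicate 3. egl-9, the HIF prolyl hydroxylase, had 744, 789 and 739.7 in the N2 vitC libraries, against 813, 759.8 and 757 in the N2 libraries, with the groups overlapping. The histone demethylases utx-1 (0.57 ± 0.07), jmjd-3.1 (0.52 ± 0.07) and jmjd-2 (0.30 ± 0.07) had positive log2 fold changes without replicate 3, jmjd-5 (-0.41 ± 0.08) had a negative one, and jmjd-1.2 had -0.17 ± 0.07. None reached 2-fold. The amidating enzymes pamn-1 and pghm-1 had log2 fold changes of 0.62 ± 0.06 and 0.00 ± 0.05, and the tyramine beta-hydroxylase gene tbh-1 -0.35 ± 0.28 at 17.7 to 36.3 normalized counts. The carnitine synthesis genes gbh-1 and gbh-2 had -0.51 ± 0.08 and -0.23 ± 0.13. Of the 6 genes of the HIF-1 pathway, rhy-1 was the only one called in either fit, with 227, 223 and 324 in the N2 vitC libraries, against 137, 123 and 116 in the N2 libraries, called with all 3 (log2 fold change 1.02, adjusted p = 0.000384) and under 2-fold without replicate 3 (0.84).

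Of 8 genes for enzymes and partners that fold, cut and cross-link collagen, 2 were called higher and 1 lower without replicate 3 (37.5%, beside 4.58% of all genes), and 1 held (12.5%, beside 2.09%). pdi-2, the protein disulfide isomerase that also serves as the second subunit of prolyl 4-hydroxylase, had 80115, 80543 and 45645 in the N2 vitC libraries, against 34426, 35601 and 34236 in the N2 libraries, and its log2 fold change was 1.21 ± 0.07 without replicate 3 (limma adjusted p = 4.96e-09) and 0.94 with all 3, short of 2-fold. The proprotein convertase bli-4 (0.94 ± 0.08) and the astacin dpy-31 (0.92 ± 0.05), which trim collagen ends, were short of 2-fold in log2 fold change without replicate 3, and glf-1 (1.05 ± 0.05), a UDP-galactopyranose mutase, was called higher without replicate 3 only. The dual oxidase bli-3 and its partners make the peroxide for tyrosine cross-links, and all 3 lay below N2 in every treated library. bli-3 had 6793, 6891 and 6714 in the N2 vitC libraries, against 11331, 11575 and 10547 in the N2 libraries, and the tetraspanin gene tsp-15 had 2533, 2547 and 2178 in the N2 vitC libraries, against 4806, 4587 and 4748 in the N2 libraries. The oxidase maturation factor doxa-1 had 1379, 1288 and 1111 in the N2 vitC libraries, against 2819.7, 2813 and 2779 in the N2 libraries, and it alone of the list held (log2 fold change -1.07 ± 0.06 without replicate 3, limma adjusted p = 2.81e-09, and -1.16 with all 3). In these 3 genes replicate 3 was the lowest library, and bli-3 (-0.70 without replicate 3) and tsp-15 (-0.89) were short of 2-fold. mlt-7, a heme peroxidase, had a log2 fold change of 0.25 ± 0.06 without replicate 3 (limma adjusted p = 0.0028), above N2 in every treated library.

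Cytochromes b561 are membrane proteins that pass electrons from ascorbate. Of the 3 genes, F39G3.4 was lower in both fits with 285, 271 and 229 in the N2 vitC libraries, against 705, 651 and 703 in the N2 libraries, a log2 fold change of -1.30 ± 0.10 without replicate 3 (limma adjusted p = 3.46e-08) and -1.39 with all 3 (adjusted p = 7.91e-06). Its neighbour in name F39G3.5 had 824, 811 and 720.1 in the N2 vitC libraries, against 1108, 1098 and 1051 in the N2 libraries, also without overlap but under 2-fold. F55H2.5 had 517, 545 and 479 in the N2 vitC libraries, against 537, 538 and 494 in the N2 libraries, with overlapping groups. hsp-4, the endoplasmic reticulum chaperone BiP, was higher in all treated libraries with 15332, 15570.1 and 10330.3 in the N2 vitC libraries, against 5732, 5409 and 6075 in the N2 libraries and held (log2 fold change 1.43 ± 0.06 and 1.24). It and the small heat shock gene hsp-43 (1.23) were the only calls among 19 heat shock genes tested, and both held (10.5%, beside 2.09% of all genes).

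**Figure D3:**
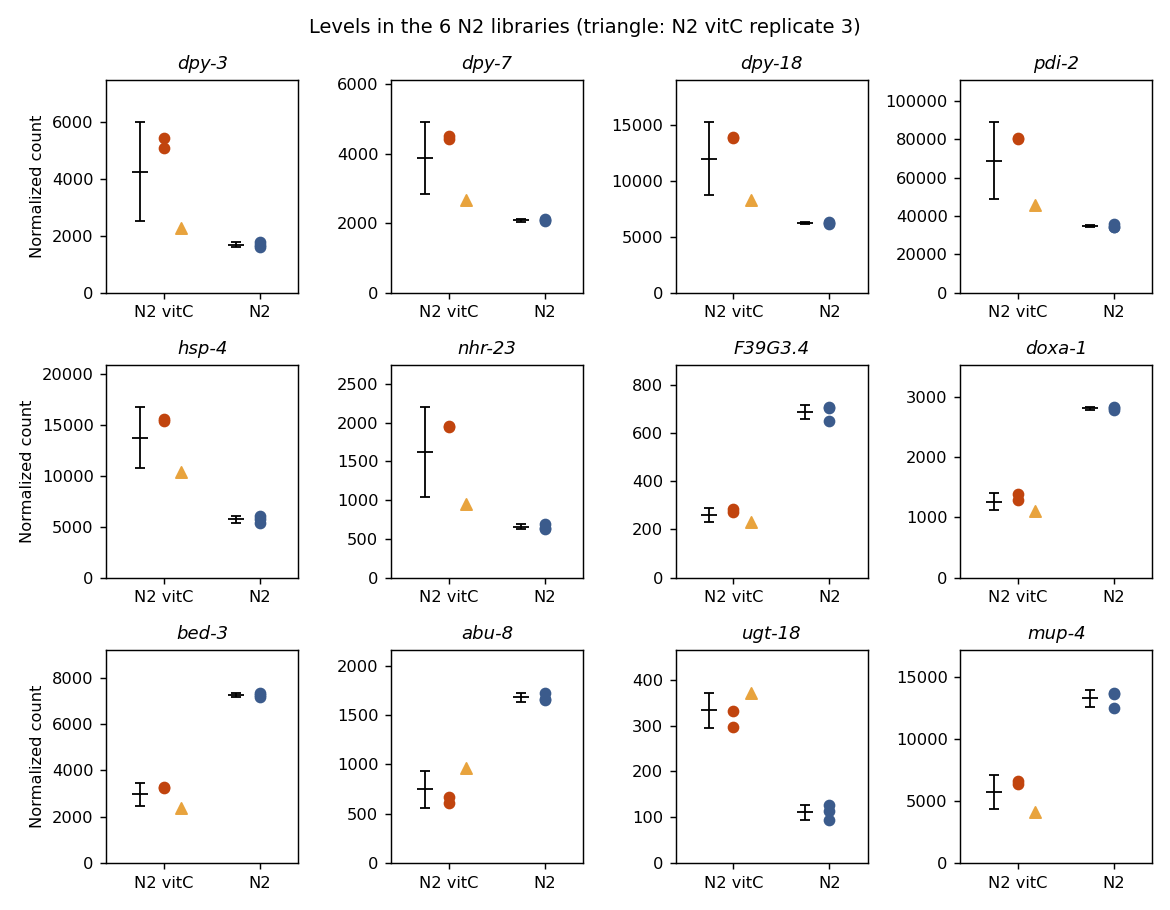
Normalized counts of 12 genes are shown in the 6 N2 libraries, N2 vitC left and N2 right, each point a library, triangles N2 vitC replicate 3 and bars the mean ± SD of 3. The groups do not overlap in any of the 12, and replicate 3 lies nearest N2 in dpy-3, dpy-7, dpy-18, pdi-2, hsp-4, nhr-23 and abu-8 but farthest from it in F39G3.4, doxa-1, bed-3, ugt-18 and mup-4.

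Secreted hedgehog-related proteins went both ways. Of 61 genes 54 were tested, and without replicate 3 there were 9 higher and 14 lower calls (42.6%, beside 4.58% of all genes). Of these calls 3 and 6 held (16.7% of the genes tested, beside 2.09% of all genes), with list medians of -0.66 without replicate 3 and -0.49 with all 3. The higher ones that held were grl-3, wrt-10 (1.43) and grd-3 (1.24), and the lower ones wrt-8 (-1.28), grl-1 (-1.21), grl-22 (-1.18), grd-15 (-1.16), grl-25 (-1.05) and grd-12 (-1.03). grl-21 had 89.5, 91.7 and 406 in the N2 vitC libraries, against 265, 293 and 252 in the N2 libraries, below N2 in replicates 1 and 2 and above it in replicate 3. Of 26 patched-related membrane proteins tested, ptr-10 (2087, 2009 and 626 in the N2 vitC libraries, against 609.9, 577 and 534 in the N2 libraries) and ptr-8 (1.70) were called without replicate 3 (7.69%, beside 4.58% of all genes). With all 3, ptr-20 was called (758, 762 and 666 in the N2 vitC libraries, against 1452, 1517 and 1463 in the N2 libraries), so that 0 held. The cuticlins and other proteins with a zona pellucida domain had 2 higher and 4 lower calls that held among 35 tested (17.1%, beside 2.09% of all genes). The higher ones were noah-1 and noah-2, which are also in the molting list. The lower ones were cutl-14 (304, 348 and 274 in the N2 vitC libraries, against 801, 776 and 830.5 in the N2 libraries), cut-3 (-1.26), cutl-4 (-1.23) and cutl-23 (-1.19), and cutl-28 (1.95) was higher without replicate 3 only.

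Astacin metalloproteases, several of which cut cuticle components, had 16 lower and 5 higher genes at an adjusted p under 0.01 without replicate 3, beside 5230 of all 14377 genes. Of 27 tested, 5 were called lower without replicate 3 (18.5%, beside 4.58% of all genes called). Of these 3 held (11.1% of the 27, beside 2.09% of all genes), nas-7 (-1.15), nas-28 (-1.1) and nas-30 (-1.01). nas-3 was the only astacin gene called higher in either fit. It had 137, 149.9 and 171 in the N2 vitC libraries, against 43.0, 55.7 and 48.0 in the N2 libraries, higher in every treated library. It was called with all 3 (log2 fold change 1.62, limma adjusted p = 2.76e-05) but not without replicate 3, where its treated mean fell just under the minimum number of reads. The study grouped 14 proteolysis genes from these same libraries, so that their direction is no independent evidence, and 14 were called lower with all 3 and 9 without replicate 3. W07B8.4 had the lowest log2 fold change (-1.29 without replicate 3), with 923, 938 and 827 in the N2 vitC libraries, against 2290.4, 2126 and 2432 in the N2 libraries. In the 5 that were lost, wrt-7 (-0.98 without replicate 3, -2.65 in replicate 3), nas-27 (-0.85, -2.12), nas-23 (-0.94, -1.68), F53A9.2 (-0.93, -1.52) and tag-38 (-0.89, -1.50), replicates 1 and 2 changed by less than 2-fold and replicate 3 by more. Of 24 cathepsin-type proteases 0 were called in either limma fit. Without replicate 3, 12 were lower and 3 higher at an adjusted p under 0.01 whatever the size, beside 5230 of all 14377 genes.

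Q/N-rich genes of the abu and pqn families, many of which encode parts of the pharyngeal cuticle, were called lower more often than higher. Of 62 tested, 10 were called lower and 1 higher without replicate 3 (17.7%, beside 4.58% of all genes), and 7 and 1 held (12.9%, beside 2.09%). abu-8, abu-15, abu-11 (-1.28), abu-10 (-1.18), pqn-54, pqn-63 (-1.37) and pqn-37 (-1.0) were lower, and pqn-72 was higher with 728, 733 and 461 in the N2 vitC libraries, against 294, 273 and 327 in the N2 libraries. pqn-54 had 167, 197 and 393 in the N2 vitC libraries, against 494, 499.9 and 529.8 in the N2 libraries, all treated libraries below N2. The abu genes include close copies, and the handling of reads shared between them is not given in the sources used here.

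Of 112 C-type lectin genes tested, 4 were called higher and 4 lower without replicate 3 (7.14%, beside 4.58% of all genes), and clec-180, clec-1 (1.28), clec-42 (1.06) and clec-59 held. Among 29 epidermal antimicrobial peptide genes 3 held (10.3%, beside 2.09% of all genes), all higher: cnc-8 with 1506, 1542 and 611 in the N2 vitC libraries, against 345, 423 and 446 in the N2 libraries, fipr-21 (1.34) and nlp-27 (1.11). The list median was -0.47 without replicate 3, so these 3 went against their list. Of 11 lysozyme genes, ilys-5 was called lower without replicate 3 with 185, 198 and 401 in the N2 vitC libraries, against 418, 483 and 501 in the N2 libraries.

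Of 30 oxidative defence genes 0 were higher and 2 were lower in both fits (6.67%, beside 2.09% of all genes). These were the thioredoxin gene trx-3, with 344, 337 and 335 in the N2 vitC libraries, against 810.0, 781 and 769 in the N2 libraries, and msra-1, a methionine sulfoxide reductase (-1.14 without replicate 3). The metallothionein mtl-1 (-1.15) was called without replicate 3 only. Of 34 glutathione S-transferases, gst-24 was higher with 714, 748 and 544 in the N2 vitC libraries, against 223, 208 and 284 in the N2 libraries and gst-3 was lower with 1019, 984 and 764 in the N2 vitC libraries, against 2084, 2074 and 2058 in the N2 libraries, both without overlap. Among 66 cytochrome P450 genes 4 held (6.06%), all lower, and cyp-13A5 had 532, 518 and 378 in the N2 vitC libraries, against 1224, 1106 and 1187 in the N2 libraries. cyp-13B1 was higher in replicates 1 and 2 only, with 767, 697 and 105 in the N2 vitC libraries, against 101, 117 and 144.99 in the N2 libraries. Of 62 UDP-glucuronosyltransferases, ugt-18 held higher with 332, 296 and 372 in the N2 vitC libraries, against 126, 113 and 93.8 in the N2 libraries and ugt-63 held lower with 349, 339 and 499 in the N2 vitC libraries, against 879, 857 and 851 in the N2 libraries. ugt-18 was among the 10 of the 155 higher genes in which replicate 3 changed more than replicates 1 and 2.

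Among 79 ribosomal protein genes and 21 sperm genes 0 were called in either limma fit. At an adjusted p under 0.01 without replicate 3 there were 1 higher and 3 lower ribosomal protein genes and 4 higher and 1 lower sperm gene, beside 5230 of all 14377 genes.

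**Figure D4:**
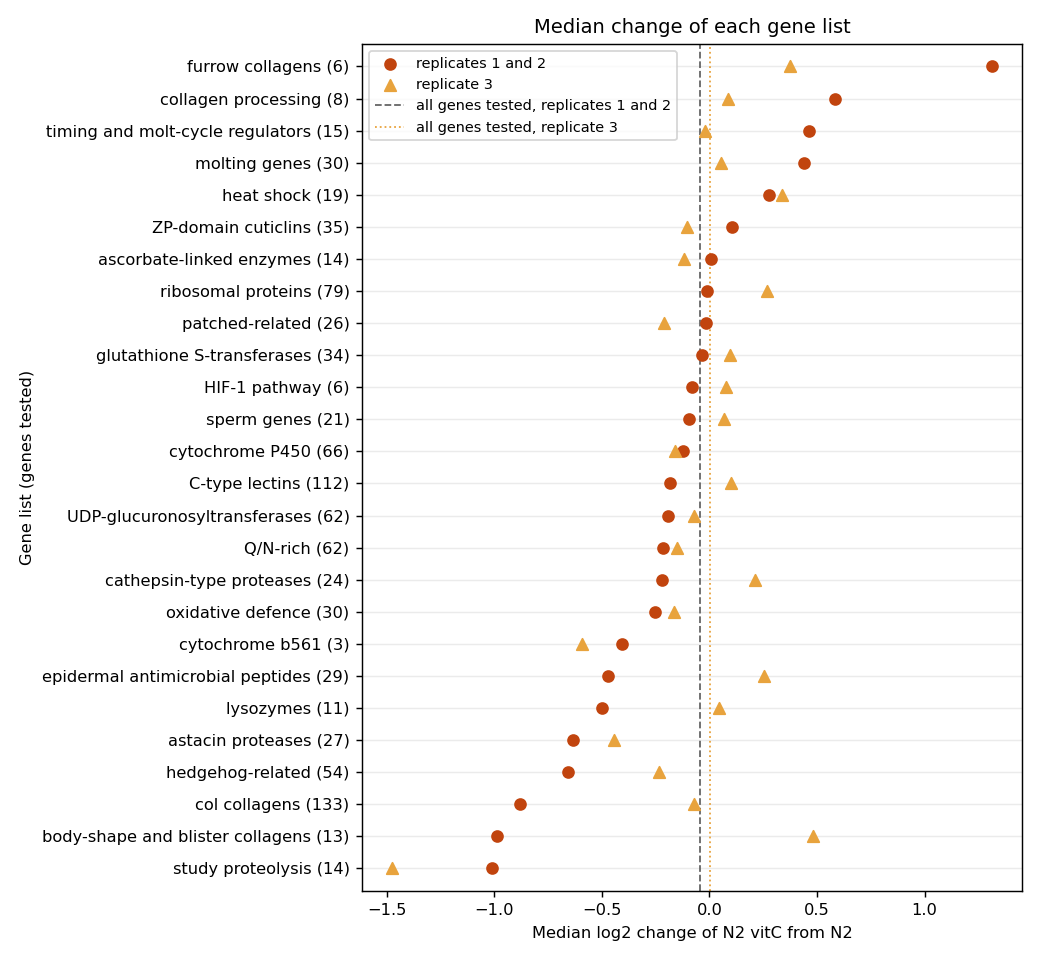
Median log2 changes from N2 are shown for each gene list (genes tested in parentheses), circles for N2 vitC replicates 1 and 2 and triangles for replicate 3, with the medians of all genes as vertical lines. The furrow collagens stand highest at 1.31 (replicate 3, 0.37), the body-shape and blister collagens at -0.99 (replicate 3, 0.48) and the study's proteolysis genes lowest at -1.01 (replicate 3, -1.47), so that the triangles fall on the other side of zero for some lists and beyond the circles for others.

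The genes called in 1 fit only showed what replicate 3 added and took away. With all 3 treated libraries, 57 calls (11 higher, 46 lower) were not made without replicate 3, and 358 (216 higher, 142 lower) were made only without it. wrt-7, a warthog-related gene, had 2824, 2710.2 and 869 in the N2 vitC libraries, against 5384, 5444 and 5556 in the N2 libraries, and T09B9.1 (127, 114 and 41.7 in the N2 vitC libraries, against 223, 236 and 209 in the N2 libraries), R08E5.4 (log2 fold change -1.33 with all 3, -0.94 without) and F37H8.3 (-1.32 and -0.95) followed it in being short of 2-fold in replicates 1 and 2. The largest changes seen only without replicate 3 were in low genes. C17H1.13 had 168, 144 and 4.26 in the N2 vitC libraries, against 16.1, 11.9 and 7.46 in the N2 libraries, and sdz-6 had 189.6, 198 and 30.6 in the N2 vitC libraries, against 29.6, 14.6 and 19.2 in the N2 libraries. K02H11.4 (3.04 ± 0.25) and Y39G8B.5 (2.97 ± 0.33) were alike in log2 fold change without replicate 3. Replicate 3 lay below every N2 library in C17H1.13 and Y39G8B.5, within their range in K02H11.4 and just above them in sdz-6.

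Among genes with a mean of at least 1000, those in which replicate 3 lay farthest above replicates 1 and 2 were col-77, col-39, col-90, the asparagine synthetase gene asns-2 and dod-24, a target of the insulin pathway. dod-24 had 1248, 1237 and 4768 in the N2 vitC libraries, against 1956, 2042 and 2120.4 in the N2 libraries. Those in which it lay farthest below were lys-8, srw-85, dpyd-1, B0507.8 and Y17D7C.3. lys-8, a lysozyme gene, had 2440.1, 2517 and 129 in the N2 vitC libraries, against 3381, 3339 and 3494 in the N2 libraries, and srw-85, a chemoreceptor gene by family, had 1633, 1679.6 and 94.5 in the N2 vitC libraries, against 1734, 1646 and 1819.8 in the N2 libraries. In dpyd-1, the dihydropyrimidine dehydrogenase gene, the values were 1822, 1874 and 213 in the N2 vitC libraries, against 1768, 1679 and 1648 in the N2 libraries. Replicates 1 and 2 lay closer to each other than to replicate 3 in all 10, but these genes were chosen for that distance, and nothing is read from the count.

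Markers of tissues were read beside these results. Of 5 epidermal markers (lin-26, che-14, elt-3, dpy-7 and nhr-23, the last pair also in the furrow collagen and regulator lists), 5 had an adjusted p under 0.01 upward without replicate 3 and 2 were called. Over all 14377 genes, 5230 had an adjusted p under 0.01 in either direction without replicate 3. Their summed normalized counts were 16416 and 16540 in N2 vitC replicates 1 and 2 and 9214 in replicate 3, against 9943 to 10201 in the N2 libraries. Germ line markers summed to 7814, 7973 and 13027 in N2 vitC against 9731 to 10086 in N2, and oocyte markers to 716, 751 and 1782 in N2 vitC against 894 to 989 in N2, with 0 of 5 called in each (4 germ line and 2 oocyte markers lower at an adjusted p under 0.01 without replicate 3). Markers of intestine, body wall muscle, pharynx and neurons (5, 5, 5 and 6 genes) had 0 calls. At an adjusted p under 0.01 without replicate 3 there were 1 higher and 4 lower intestine, 2 higher muscle, 1 lower pharynx and 1 lower neuron marker. Intestine markers summed to 15984, 16025 and 22480 in N2 vitC against 18911 to 19783 in N2. Pharynx markers summed to 4071, 4007 and 5935 against 4635 to 4924, muscle markers to 229347, 228471 and 170881 against 209627 to 228722. Early embryo markers were under the minimum mean in all 5 genes, and 2 of 37 sperm and 1 of 6 yolk markers passed it. The tissue labelled was the whole worm, and in whole worms more cells of a type and more RNA per cell cannot be told apart. Whether the shifts of these marker sums have a part in the changes of cuticle genes was not tested.

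A different response in the mutant was tested gene by gene as the interaction of strain and vitamin C, without replicate 3. The difference between the N2 response and the wrn-1(gk99) response was called for 1126 of 14377 genes (7.83%), and for 881 (6.13%) with all 12 libraries. Among the genes that held in N2 the difference was called for 121 of the 155 higher and 90 of the 146 lower, but these genes were chosen on the N2 contrast that the difference contains, and nothing is read from the share. The median log2 fold change in wrn-1(gk99) was 0.01 over the 155 and -0.05 over the 146. cdh-7 had a log2 fold change of 2.25 in N2 without replicate 3 and -0.39 in wrn-1(gk99), and lpr-5 had 2.23 and -0.05. In grl-3 the values were 2.35 and 2.2 (difference 0.15, limma adjusted p = 0.104), and Y54G2A.57 had -1.43 and -1.4.

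In the genes with the 5 largest differences in each direction the log2 fold changes of the strains had opposite signs. Choosing genes for the size of the difference favours opposite signs, so nothing is read from them. The 5 with the higher response in N2 were called without replicate 3 but not with all 12 libraries, and the 5 with the lower response were called both ways. F35E12.5 had 5196, 4948 and 1101 in the N2 vitC libraries, against 2394, 2459 and 2563 in the N2 libraries, and its log2 fold change was 1.04 in N2 without replicate 3 and -1.92 in wrn-1(gk99). mlt-11 (2.25 and -0.66), fbn-1 (1.87 and -1.02), sdz-6 (3.2 and -0.33) and cyp-13B1 (2.60 and -0.54) followed the same order. On the other side stood T28A11.4 (-0.77 in N2 and 2.07 in wrn-1(gk99)), T20G5.13 (-0.98 and 1.75), T28A11.20 (-0.54, limma adjusted p = 0.0495, and 2.08), T20G5.12 (-1.09 and 1.41) and Y47H10A.3 (-1.01 and 1.33). T28A11.4 was lower in all treated N2 libraries with 207, 186 and 187 in the N2 vitC libraries, against 301, 341 and 368 in the N2 libraries. The strand setting of the counting is not given in the sources used here.

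**Figure D5:**
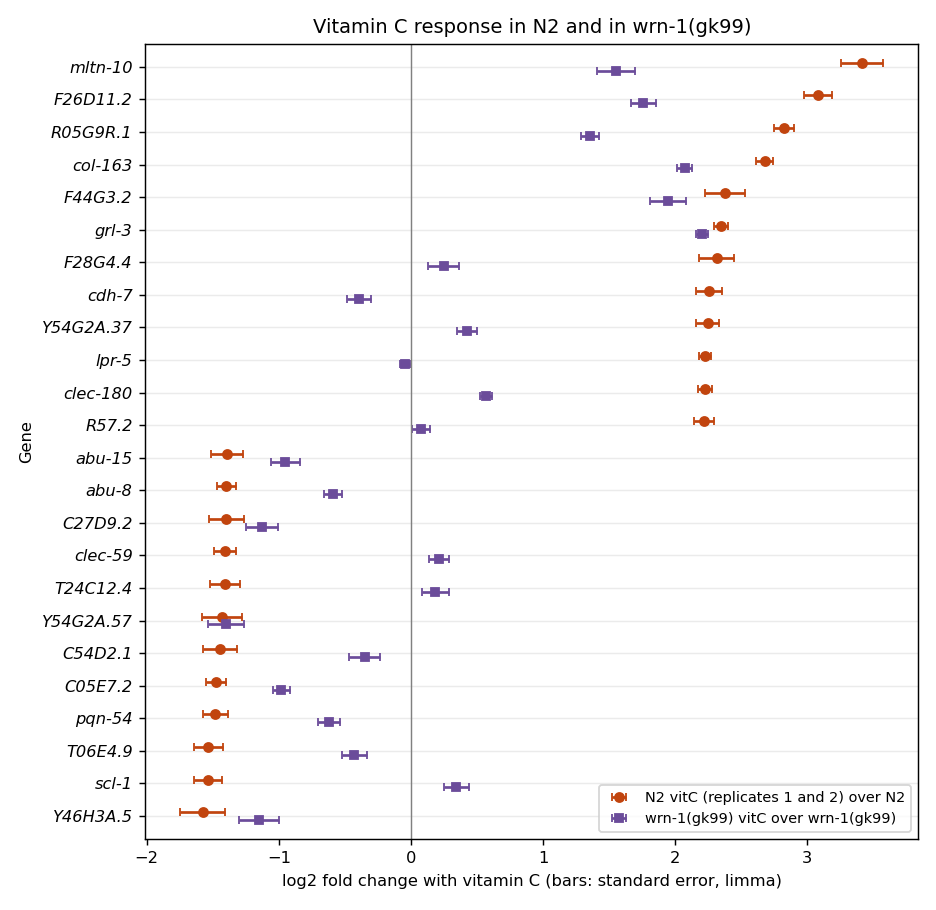
Log2 fold changes with vitamin C are shown for the 12 highest and 12 lowest genes that held in N2, circles for N2 (replicates 1 and 2 of N2 vitC) and squares for wrn-1(gk99), with bars of 1 SE from limma. The squares lie near zero for lpr-5 (-0.05) and R57.2 (0.07) and near the circles for grl-3 (2.35 in N2, 2.2 in wrn-1(gk99)) and Y54G2A.57 (-1.43 in N2, -1.4 in wrn-1(gk99)).

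Genes that the study singled out were read in the same way. mup-4, which attaches the epidermis to muscle, had 6378, 6585 and 4123 in the N2 vitC libraries, against 13721, 13591 and 12499 in the N2 libraries, and C27D9.2 had 83.6, 76.8 and 66.4 in the N2 vitC libraries, against 214, 241 and 187 in the N2 libraries. Both were lower without overlap and held, and in both replicate 3 was the lowest library. F12A10.1 held higher with 1022, 914 and 869 in the N2 vitC libraries, against 492, 496 and 409 in the N2 libraries. The transcription factor genes nhr-28 (360.4, 342 and 449 in the N2 vitC libraries, against 313, 338 and 365 in the N2 libraries) and mab-5 (503, 547 and 228 in the N2 vitC libraries, against 308, 395 and 280.4 in the N2 libraries) were not called in either fit. N2 vitC replicates 1 and 2 lay within the N2 range in nhr-28 and above every N2 library in mab-5 (log2 fold change 0.69 ± 0.12 without replicate 3, limma adjusted p = 0.000287), where replicate 3 lay below them. The tubulin gene tba-1, which the study used as a control, had 17059.5, 17371 and 12105 in the N2 vitC libraries, against 12606, 12258 and 12927 in the N2 libraries, an adjusted p of 3.55e-06 without replicate 3 and 0.102 with all 3 (limma), and was not called. wrn-1 itself, intact in this strain, had 407, 380.3 and 614 in the N2 vitC libraries, against 516, 499 and 502 in the N2 libraries, with replicate 3 above and replicates 1 and 2 below N2.

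Genes that held came from every chromosome. By the RefSeq annotation of WBcel235, which is a later build than the one the reads were aligned to and in which 14218 of the genes tested were found, the share of tested genes that held higher ran from 0.593% on chromosome III and 0.713% on chromosome I to 1.35% on V and 1.66% on X. The share that held lower ran from 0.713% on chromosome I to 1.32% on II and 1.35% on V. The median level in N2 was 404 normalized counts for the 155 higher genes and 991 for the 146 lower ones, beside 374 for all genes tested. In the deposited table a sequence name without a gene name was carried by 81 of the 155 and 74 of the 146, and by 7520 of all 14377 genes.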

How the data were processed

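The deposited table held a signal for each gene and library, namely gene read counts that the authors divided by DESeq size factors. The submitters' processing notes name FastQC, TopHat, HTSeq, DESeq and build ce10; versions, strand setting and the handling of shared reads are not given in the sources used here. Libraries were grouped by their labels. Every nonzero value was a whole multiple of the value of 1 read (tolerance 0.02 reads), so depth was read from the table. The members and gene lists were chosen with earlier results of these data known.

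Genes with a mean of at least 10 over the 6 N2 libraries were tested with limma 3.58.1 (R 4.3.3) on log2(normalized count + 1), which understates changes of low genes, over the 12 libraries of 4 groups (8 residual degrees of freedom), or 11 without N2 vitC replicate 3 (7). Calls needed a Benjamini-Hochberg adjusted p under 0.01, a 2-fold ratio of means and a group mean above 145. Scripts were tested on simulated data. The p-values measure the spread between libraries that the study calls biological replicates. The chi-square per gene between 2 libraries, near 1 where only read sampling separates them, was 1.70 for N2 replicates 1 and 2. It was 1.37 for wrn-1(gk99) replicates 1 and 2, and 5.45 to 20.9 for other pairs within a group, those with N2 vitC replicate 3 aside. In some pairs the spread was thus little above that of read sampling. Libraries were not treated as paired by replicate number. Deviations from the group means correlated at 0.07, -0.0004 and 0.08 for N2 and N2 vitC libraries of equal number, and at -0.09 to 0.05 for unequal numbers. The group means include N2 vitC replicate 3, so these values cannot decide whether the numbers pair libraries.

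Named were the 12 highest and 12 lowest genes that held; the highest and lowest called member of each list and every member of 4 short lists; the 5 largest changes called in each fit only, 1 of them not reported here; the 5 genes in each direction, with a mean of at least 1000, where replicate 3 lay farthest from replicates 1 and 2; 8 genes the study named; and the 5 largest strain differences in each direction. Other list members were named because they were called, which was seen in the data. Alternatives were other pseudocounts, filters, scalings, thresholds and sample sets, a replicate block, and edgeR 4.0.16 and DESeq2 1.42.0 on recovered reads, which left out wrn-1(gk99) replicate 3. Figures were drawn with matplotlib 3.10.9.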

Additional observations from a re-analysis of the deposited data

Results flagged for a closer look

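The response to vitamin C differed between the strains by the interaction test, both without N2 vitC replicate 3 and with all 12 libraries, for 28 of the 113 genes named by rule. Of these 28, 11 had a higher and 17 a lower response in N2. Over all genes the difference was called for 7.83% without replicate 3 and 6.13% with all 12 libraries. Many named genes were chosen on the N2 contrast that the difference contains, or for the size of the difference itself, so nothing is read from the count. The values are the log2 response in N2 without replicate 3 minus that in wrn-1(gk99), with SE of 0.06 to 0.29, and the highest limma adjusted p was 1.73e-05 without replicate 3 and 0.00867 with it. The furrow collagens differed by 1.94 (dpy-3), 1.84 (dpy-8), 1.68 (dpy-10), 1.66 (dpy-2), 1.64 (dpy-9) and 1.45 (dpy-7), and the molting receptor gene nhr-23 by 2.07. The cadherin gene cdh-7 differed by 2.65, gst-24 by 2.15, the astacin gene nas-3 by 1.84 and the chaperone gene hsp-4 by 1.42.

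On the lower side were the 3 genes of the peroxide-making complex, at -1.35 for doxa-1, -1.43 for bli-3 and -1.56 for tsp-15. The cytochrome b561 gene F39G3.4 differed by -1.62, wrt-7 by -1.84, bed-3 by -1.15, scl-1 by -1.88 and clec-59 by -1.62. The conjugating enzyme genes gst-3 and ugt-63 differed by -1.35 and -1.58. Genes with a sequence name were T06E4.9 (-1.11), T24C12.4 (-1.59), Y47H10A.3 (-2.34), T20G5.12 (-2.50), T28A11.20 (-2.62), T20G5.13 (-2.73) and T28A11.4 (-2.84). Groups of 3 libraries were too small to look for single outlying values.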

How the results depend on the processing

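Without N2 vitC replicate 3 the 659 calls changed past 1.5 times only when the minimum group mean was dropped (1082 calls). With all 3 treated libraries the 358 calls became 128 (26 higher, 102 lower) when only the 6 N2 libraries were fitted (the cause was not tested), and 528 without the minimum group mean, 372 by edgeR and 419 by DESeq2. With only the N2 libraries and all 3 treated libraries, 0 genes of the molting, regulator, col, furrow collagen, hedgehog-related, cuticlin, C-type lectin and Q/N-rich lists were called higher, and the lower calls were 13 col, 9 proteolysis, 5 hedgehog-related, 3 astacin and 2 Q/N-rich genes. Leaving out 1 library at a time gave 267 to 659 calls with all 3, where 659 is the fit without N2 vitC replicate 3, 645 to 692 without replicate 3, and 1120 to 1191 called strain differences. With all 3 treated libraries the adjusted p (limma, or edgeR or DESeq2 where these were the alternative) lay above 0.01 in 11 of the 20 alternatives for R05G9R.1. The number was 9 for F44G3.2 and pqn-54, 8 for T09B9.1, and 7 for F26D11.2, lpr-5 and grl-3. It was 6 for mltn-10, col-163, cdh-7, R57.2, dpy-3, dpy-8, dpy-10, wrt-7 and pdi-2. The replicate block gave 354, 659 and 1131 calls.

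The log2 fold changes that turned their sign belonged to genes not called in that comparison. With all 3 treated libraries, scaling to equal totals gave 0.034 for dod-24, 0.066 for egl-9, 0.057 for jmjd-1.2, 0.074 for F55H2.5, edgeR gave 0.019 for col-39, 0.31 for dod-24, 0.013 for egl-9, 0.020 for jmjd-1.2, 0.15 for mltn-1, 0.022 for F55H2.5, 0.11 for asns-2, DESeq2 gave 0.25 for dod-24, 0.052 for mltn-1, 0.051 for asns-2. Leaving out 1 library at a time gave -0.25 to 1.13 for B0507.8, -0.71 to 0.26 for dod-24, -0.082 to 1.04 for F35E12.5, -0.17 to 0.055 for jmjd-1.2, -1.17 to 0.017 for mltn-1, -0.92 to 0.12 for asns-2, -1.44 to 0.12 for dpyd-1, -0.21 to 0.0057 for let-268, -0.070 to 0.022 for F55H2.5, -1.33 to 0.0024 for Y17D7C.3, -0.20 to 0.0043 for pghm-1. Without replicate 3, scaling to equal upper quartiles gave 0.0099 for egl-9, scaling to equal totals gave 0.040 for egl-9, the replicate block gave -0.014 for let-268, -0.026 for Y17D7C.3, -0.010 for pghm-1, edgeR gave 0.023 for egl-9. Leaving out 1 library at a time gave -0.00054 to 0.11 for nhr-28, -0.060 to 0.024 for egl-9, -0.049 to 0.060 for let-268, -0.019 to 0.060 for F55H2.5, -0.012 to 0.017 for Y17D7C.3, -0.020 to 0.028 for pghm-1. For the strain difference, scaling to equal totals gave 0.013 for Y54G2A.57, the replicate block gave 0.0013 for Y54G2A.57, edgeR gave 0.054 for Y54G2A.57, DESeq2 gave 0.018 for Y54G2A.57. Leaving out 1 library at a time gave -0.091 to 0.063 for Y54G2A.57.

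The count tools were run without wrn-1(gk99) replicate 3.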

Other observations

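A further 12 gene families were read after values had been seen, so they are descriptions without a test of the family. All 7 lipocalin-related genes were tested, 5 were called higher without N2 vitC replicate 3 and 4 held (lpr-1, lpr-4, lpr-5 and lpr-6). The median log2 fold change of the 7 was 1.68 without replicate 3 and 1.28 with all 3, and it was 0.38 in replicate 3 alone. Lipocalin-related proteins are secreted into the apical matrix of epithelia in this animal. Peptidyl-prolyl isomerases, which help fold collagens, had 3 genes that held among 23 tested (family median 0.02 without replicate 3), fkb-7 (log2 fold change 2.13 without replicate 3), cyn-6 (1.4) and fkb-5 (1.2). In the other direction, 5 genes of the T06E4 series were tested, 5 were called lower without replicate 3 and 4 held, with a median of -1.36, and of 6 phat genes 3 were called lower without replicate 3 and 2 held. In the other 8 families the genes that held were 2 higher of 207 nuclear hormone receptor genes tested, 1 higher and 1 lower of 151 F-box A genes, 3 higher of 29 short-chain dehydrogenase genes, 2 higher of 9 cadherin genes, 1 higher of 19 insulin-like peptide genes, 1 higher and 1 lower of 16 acid phosphatase genes, and 0 of 47 transthyretin-related and 3 protein disulfide isomerase genes. Over all genes 2.09% held.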
